A study of Monodelphis domestica and Mus musculus and Sus scrofa with 73 samples.

Results

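The comparison described here was made between forelimbs of bat embryos (Carollia perspicillata, the short-tailed fruit bat) at stage 14 and at stage 13. Its members are the 6 forelimb RNASeq libraries labelled with these stages, 3 of stage 13 and 3 of stage 14, among 16 bat libraries analysed here and 73 samples in the series. The embryos came from wild bats collected in Trinidad, with no genetic change or treatment labelled, and were staged by their form. The series text calls the limbs of stage 13 a ridge, those of stage 14 a bud and those of stage 15 a paddle. Of the stage 14 libraries, replicates 1 and 2 carry the label ES (early stage) and replicate 3 carries the stage number, as the stage 13 libraries do. The ES libraries also stand in a block of deposited samples apart from the stage 13 libraries and replicate 3. The paper describes bat forelimbs of stages 14 and 15 only. The labels do not say how many embryos or limbs entered a library, nor whether the replicates came from different embryos or litters, so the p-values below measure the spread between these libraries. The deposited names give 1 forelimb and 1 hind limb library of stage 13 the same number, and whether they share an embryo was not tested.

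The forelimb first appears as a ridge of mesenchyme on the flank under surface ectoderm. At its rim the ectoderm thickens into the apical ectodermal ridge, whose fibroblast growth factors keep the mesenchyme growing, while Sonic hedgehog from the posterior margin patterns the bud from front to back. Between ridge and bud the limb grows out, and the precursors of its skeleton and muscle begin to form. In bats this limb later becomes the wing.

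The genes of these files are components of a de novo assembly, known by number only. The identifiers could not be paired with gene names here, and no sequence of the assembly was read, so the genes are described by their levels, sizes and behaviour across libraries, and 4 of them are given by their identifiers. Genes of limb patterning, cartilage, muscle, epidermis or blood could not be looked up, and the labelled tissue could not be checked against markers. In a whole limb, a change in the number of cells of 1 type cannot be told apart from a change of RNA per cell.

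The 6 libraries held from 13600718 to 32627877 counts, with a median of 27781904. Counts here are RSEM's estimated reads per gene, rounded to whole numbers. From 3 counts, the lowest level such depths can show lies between 0.0919 and 0.221 counts per 1000000 counts of a library (CPM), for counting error only. Between 17799 and 20064 of the 27026 listed genes had at least 1 count, and the 100 most abundant genes took from 19.7% to 23.5% of a library's counts. Over the 14630 genes tested, the Spearman coefficient between libraries averaged 0.981 within stages and 0.968 between them. The difference of 0.0125 gave p = 0.1 in an exact one-sided permutation test over the 20 assignments of the libraries, the smallest p that this design allows.

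Stage 13 replicate 3 stood apart from the other forelimb libraries. It was the shallowest, with 13600718 counts against 29498466 and 27535128 in replicates 1 and 2. Its Spearman coefficients with those replicates were 0.965 and 0.968, where the coefficient between replicates 1 and 2 was 0.988, and where those between stage 14 libraries ran from 0.985 to 0.99. It nevertheless resembled the other stage 13 libraries more than any stage 14 library, with 0.956 as its highest coefficient with stage 14. Replicates 1 and 2, in turn, had coefficients from 0.972 to 0.982 with the stage 14 libraries. Both were thus closer to every stage 14 library than to replicate 3. Of the 5598 genes under 300 bases, 23.1% had a count in replicate 3, against 11.7% and 8.9% in replicates 1 and 2 and from 6.88% to 13.6% at stage 14. The 3 hind limb libraries of stage 13 had shares of 24.2%, 25.7% and 24.7%. Thinning all 6 libraries to the depth of replicate 3 widened its distance, leaving from 5.27% to 8.74% in the other libraries. At a minimum of 10 counts the share was 1.7% in replicate 3 and from 1.41% to 2.16% in the others, so the excess lay in genes with fewer than 10 counts. In 165 genes tested, replicate 3 was at least 4-fold above both other stage 13 libraries, and in 47 genes at least 4-fold below both. The same counts were 22 and 17 for replicate 1, and 22 and 16 for replicate 2. The biological coefficient of variation, which is edgeR's estimate of the spread between libraries beyond counting error, was 0.302 among the 3 stage 13 libraries, 0.181 without replicate 3, and 0.192 among the 3 stage 14 libraries. The number of genes past the threshold, and its division by direction, size, level, length, isoforms, hind limb and stage 15, is therefore given with and without this library. Other counts are with all 6 libraries unless stated.

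**Figure D1:**
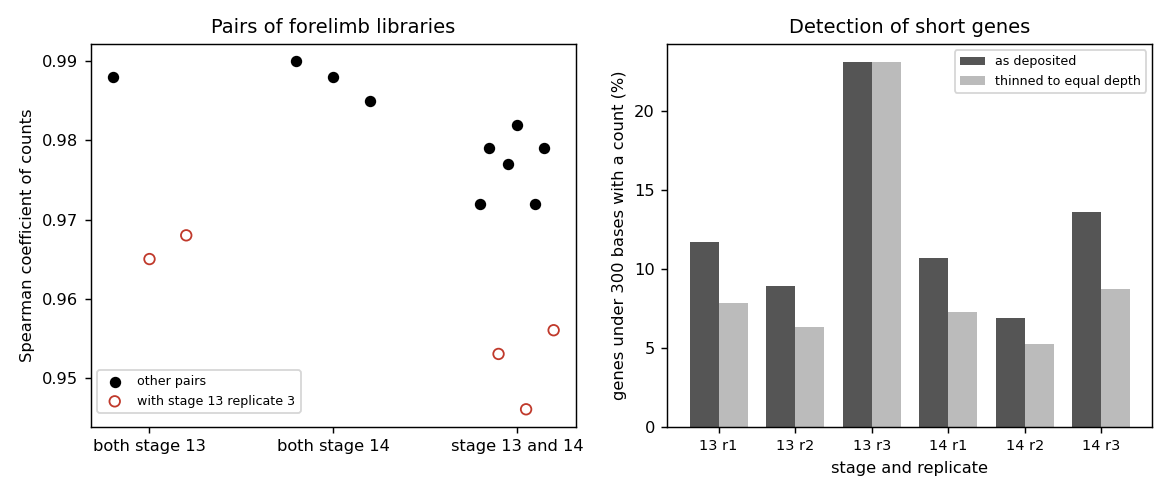
Left, Spearman coefficients (vertical axis) of counts over the genes tested for each pair of forelimb libraries, with pairs that include stage 13 replicate 3 as open red circles. Right, share in percent of the genes under 300 bases with a count in each library, as deposited and after thinning to equal depth; stage 13 replicate 3 reaches 23.1%, and no other library exceeds 13.6%.

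Among the genes past the threshold, more rose than fell between stage 13 and stage 14, by a margin that depended on the test. Of 14630 genes with at least 10 counts in 3 or more of the 6 libraries, 322 (2.2%) were higher at stage 14 and 122 (0.834%) were lower by edgeR's quasi-likelihood test at a Benjamini-Hochberg adjusted p under 0.05, so 444 (3.03%) passed in all and 72.5% of them were higher. With DESeq2, another test for counts, 710 genes were higher and 534 lower on the same libraries, so 57.1% of its calls were higher. Most of the genes that passed with edgeR changed by more than 2-fold. The median fold change over all genes tested was -0.0038 on the log2 scale. Without the test's threshold, 2818 genes (19.3%) had an unadjusted p under 0.05, and the levels of the groups did not overlap in 3947 genes (27%), 2154 of them higher at stage 14 and 1793 lower. Without stage 13 replicate 3 the same numbers were 2961 (20.2%) and 5606 (38.3%). Of the latter, 2836 were higher at stage 14 and 2770 lower, a nearly even division. That count sets 2 libraries against 3, where fewer levels have to be apart. All 322 genes that rose and all 122 that fell were among those without overlap, which follows in part from the test on the same libraries.

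Without stage 13 replicate 3 the same 14630 genes gave 677 past the threshold (4.63%), 446 higher (3.05%) and 231 lower (1.58%) at stage 14. These included 436 of the 444 genes, 316 that rose and 120 that fell. The 241 genes that were added comprised 130 higher and 111 lower, so the share of higher genes went from 72.5% to 65.9%. The median change of the 322 genes that rose was 1.49 on the log2 scale with all libraries and 1.45 without replicate 3, and that of the 122 genes that fell was -1.24 in both. Leaving out any of the other 5 libraries lowered the count of 444, to 146 and 286 without stage 13 replicates 1 and 2, and to 83, 120 and 153 without stage 14 replicates 1 to 3. The share of higher genes among them was then between 72% and 85.8%.

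The fit without replicate 3 left that library unused, so its levels could be set beside the calls. For each of the 677 genes its position was taken on a scale where the mean log2 level of stage 13 replicates 1 and 2 is 0 and that of the stage 14 libraries is 1. Among the 446 higher genes replicate 3 was nearer to stage 13 in 405 and nearer to stage 14 in 41, with a median position of -0.06. Among the 231 lower genes it was nearer to stage 13 in 157 and nearer to stage 14 in 74, with a median position of 0.19. It was above the mean of replicates 1 and 2 in 79 of these genes, so its level was most often on the side of stage 14. The 241 added genes passed without replicate 3 and failed with it, a choice that favours genes in which replicate 3 lies toward stage 14, so their positions are a description. The median position was 0.31 in the 130 added higher genes, of which 41 were nearer to stage 14, and 0.57 in the 111 added lower genes, of which 69 were. All 41 higher genes in which replicate 3 was nearer to stage 14 were thus added ones.

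The largest changes were rises. The genes that rose had a median fold change of 1.49 on the log2 scale, with quartiles at 1.01 and 2.36 and a range from 0.58 to 7.13. The genes that fell had a median of 1.24 in size, with quartiles at 0.91 and 1.98 and a range from 0.53 to 5.17. A change of at least 2-fold was seen in 246 genes that rose and 82 that fell, of at least 8-fold in 50 and 11, and of at least 16-fold in 21 and 5. Without stage 13 replicate 3 these numbers were 302 and 129, 48 and 10, and 21 and 4, so the added genes were mostly ones of smaller change. The median standard error was 0.24 for the genes that rose and 0.23 for those that fell. Of the genes that did not pass, 1064 had a fitted change of at least 2-fold and 103 of at least 4-fold, and 712 and 75 without replicate 3. The last gene inside the threshold had a log2 change of -1.13 (unadjusted p = 0.001517, edgeR) and the first outside it 0.56 (unadjusted p = 0.001524, edgeR).

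No gene past the threshold was without any count at a stage. None of the 322 genes that rose was at 0 in all stage 13 libraries, and none of the 122 that fell was at 0 in all stage 14 libraries. In 5 of the former the 3 stage 13 libraries held at most 3 counts together, and in 1 of the latter the 3 stage 14 libraries did. Fewer than 10 counts in every library of the lower stage were found for 25 genes that rose and 5 that fell, and their fold changes rest on those few counts.

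**Figure D2:**
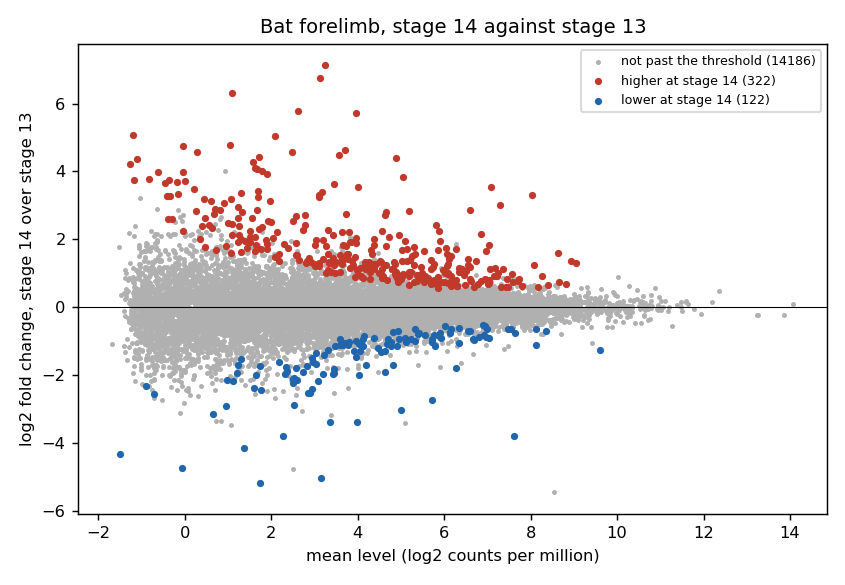
Log2 fold change of stage 14 over stage 13 (vertical axis) against the mean level in log2 CPM (horizontal axis) for the 14630 genes tested, each point a gene. Red points are the 322 genes past the threshold and higher at stage 14, blue points the 122 lower, and the smallest changes that pass shrink as the level rises.

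The genes past the threshold were spread over levels, lengths and numbers of isoforms. By mean level over the 6 libraries, 22 of 1372 genes under 1 CPM passed (1.6%), 139 of 4092 from 1 to 10 (3.4%), 228 of 6869 from 10 to 100 (3.32%) and 55 of 2297 at 100 or more (2.39%). The median size of the change among those that passed was 3.73, 2.16, 1.13 and 0.84 on the log2 scale in the same order. The median standard error over all genes tested went down in the same order, from 0.54 through 0.37 and 0.19 to 0.14. A small change could thus pass more readily in a more abundant gene. Higher genes were the majority in each of the 4 level classes, from 69.1% of those that passed at 100 or more CPM to 81.8% under 1. Without stage 13 replicate 3 the shares that passed were 2.07%, 5.15%, 5.01% and 4.21% in the same order of level.

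By length, none of the 96 genes tested under 300 bases passed, and 26 of 2251 did from 300 to 1000 bases (1.16%), 252 of 7731 from 1000 to 3000 (3.26%) and 166 of 4552 at 3000 or more (3.65%). Only these 96 of the 5598 genes under 300 bases had enough counts to be tested, so the number of calls among them was largely set by the filter. Replicate 3 also had the highest share of genes with a count when all genes under 500 bases were taken, 37.3% against 17.5% to 27.2% in the other libraries. From 300 to 500 bases 5 of 406 genes tested passed (1.23%), and 6 (1.48%) without replicate 3. Without it, 49 genes passed from 300 to 1000 bases (2.18%), 376 from 1000 to 3000 (4.86%) and 252 at 3000 or more (5.54%). The genes that rose had a median length of 2484 bases and those that fell 2534, beside 2148 for all genes tested. By isoforms, 192 of 5731 genes with 1 isoform passed (3.35%), 178 of 5929 with 2 to 5 (3%) and 74 of 2970 with 6 or more (2.49%). Without replicate 3 these shares were 5.11%, 4.57% and 3.8%. The median number of isoforms was 2 in the genes that rose, in those that fell and in all genes tested.

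Trinity splits some assembly components into several genes, which can be pieces or close relatives of 1 gene and can share reads. Of the genes tested, 1020 lay in 499 components with more than 1 tested gene, and 33 of these genes passed. In 3 components 2 genes passed, and in each of the 3 both changed in the same direction. At most 3 calls could thus be repeats of another within a component.

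The genes that rose, the longer list, held a larger part of the counts at stage 14 than those that fell had held at stage 13. The lists differ in length, so these parts do not compare levels per gene. In the stage 13 libraries the 322 genes took 0.861%, 0.958% and 0.891% of the counts (replicates 1 to 3). In the stage 14 libraries they took 2.18%, 1.87% and 2.01%. The 122 genes that fell took 0.793%, 0.739% and 0.845% at stage 13, and 0.355%, 0.376% and 0.425% at stage 14. The groups do not overlap in either list, which the choice of genes fixes.

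Stage 14 replicate 3, the library labelled with a stage number, was 1 of the 3 libraries in which the 444 genes were called, so its closeness to the ES libraries in these genes is favoured by their choice and is given as a description. Relative to the mean stage 13 level, the 322 genes that rose had a median of 1.55 and 1.49 on the log2 scale in the ES libraries and 1.50 in replicate 3. The 122 genes that fell had a median of -1.37 and -1.23 in the ES libraries and -1.08 in replicate 3. Over all genes tested the median was between 0.01 and 0.03 in these 3 libraries. With the ES libraries only, 153 genes passed, and replicate 3 was not used to choose them. On a scale where the stage 13 mean is 0 and the mean of the ES libraries is 1, replicate 3 had a median position of 0.90 in the 113 higher genes (quartiles 0.78 and 1.01) and of 0.73 in the 40 lower genes (quartiles 0.60 and 0.88). It was nearer to the ES libraries in 110 of the former and 34 of the latter. With replicate 3 alone against stage 13, 1 gene passed. The latter fit has 1 library in a group and assumes that it varies like the stage 13 libraries. Among the stage 13 libraries none carries the ES label or stands in the block of deposited samples that holds the ES libraries. For the ES libraries the label, the block and the stage thus cannot be told apart.

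The largest rise was that of comp119338_c0, a gene of 1685 bases with 9 isoforms. Its counts were 1, 7 and 1 in the stage 13 libraries and 701, 449 and 323 in the stage 14 libraries, that is 0.0364, 0.263 and 0.068 CPM at stage 13 and 25.1, 21.6 and 9.9 at stage 14. It was close to absent in every stage 13 library, at or near the limit of detection, and present in every stage 14 library. The log2 fold change was 7.13 with a standard error of 0.62 (edgeR's quasi-likelihood test, adjusted p = 0.00099), and 6.95 without stage 13 replicate 3 (adjusted p = 0.00231, same test). With 9 counts in all at stage 13, the size of this change rests on few counts.

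The rise with the smallest p among genes with at least 10 counts in every library was that of comp119891_c0, a gene of 3273 bases with 22 isoforms. Its levels were 2.26, 2.22 and 3.81 CPM at stage 13, and 65.9, 60.9 and 44.7 at stage 14. The lowest stage 14 library was above the highest stage 13 library by far more than the spread within either group. Its log2 fold change was 4.39 with a standard error of 0.29 (adjusted p = 0.000448, edgeR's quasi-likelihood test), and 4.68 without stage 13 replicate 3 (adjusted p = 2.86e-05, same test). Per kilobase of effective length its mean level was 0.929 CPM at stage 13 and 19.2 at stage 14.

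Among the genes past the threshold, the largest fall was that of comp107450_c0, a gene of 2832 bases with 1 isoform. Its levels were 1.86, 2.29 and 16.1 CPM at stage 13, and 0.143, 0.193 and 0.214 at stage 14. The groups did not overlap, but stage 13 replicate 3 was far above the other stage 13 libraries and set much of the size of the fall. The log2 fold change was -5.17 with a standard error of 0.96 (adjusted p = 0.0273, edgeR's quasi-likelihood test), and -3.45 without replicate 3 (adjusted p = 0.00319, same test). With any 1 of the stage 14 libraries left out the adjusted p was above the threshold, from 0.105 to 0.151 (same test).

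The fall with the smallest p, which was also the smallest p of all genes tested, was that of comp125497_c0, a gene of 3459 bases with 1 isoform. Its levels were 469, 346 and 291 CPM at stage 13, and 23.3, 30.5 and 25.5 at stage 14. It was thus abundant in all stage 13 libraries, replicate 3 included, and low in each stage 14 library, with no overlap. Its log2 fold change was -3.81 with a standard error of 0.20 (adjusted p = 0.000212, edgeR's quasi-likelihood test), and -3.94 without stage 13 replicate 3 (adjusted p = 2.3e-05, same test). Per kilobase of effective length its mean level went from 117 to 8.37 CPM, so at stage 13 it was the highest of the 4 genes by that measure and at stage 14 it was below both genes that rose.

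**Figure D3:**
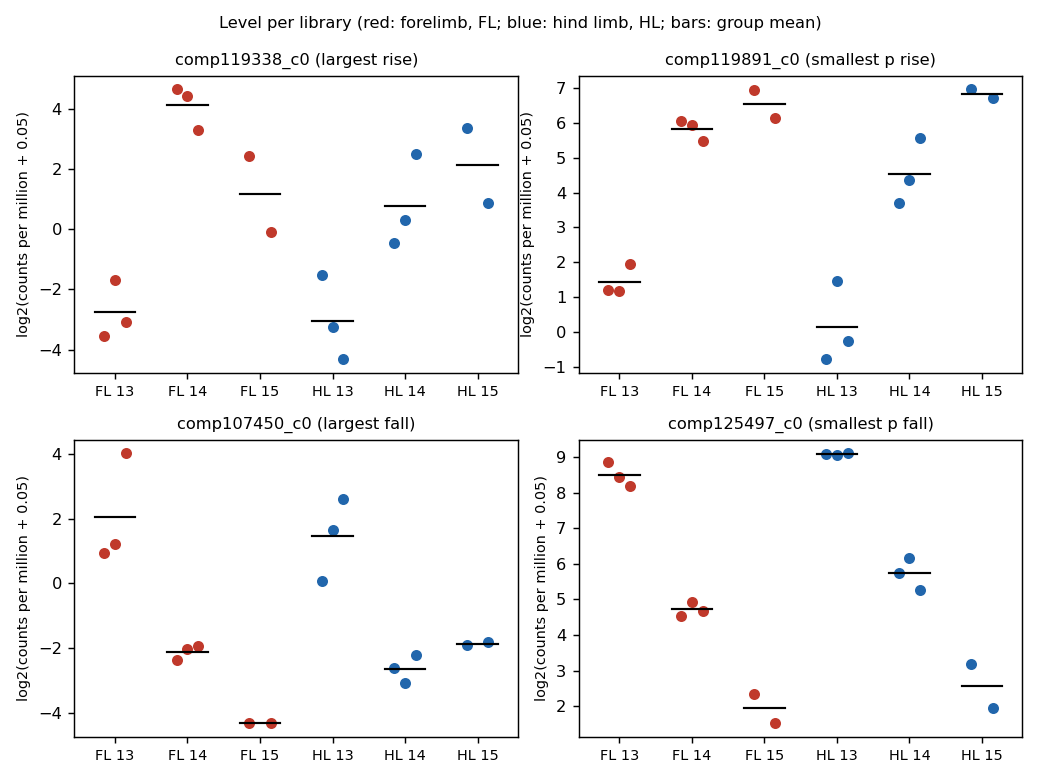
Level of the 4 genes in each bat library, as log2 of CPM plus 0.05 (vertical axis), by limb and stage (horizontal axis; FL forelimb in red, HL hind limb in blue). Each point is a library and each bar the mean of its group; the stage 13 and stage 14 forelimb libraries do not overlap in any of the 4 genes.

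At stage 15 the genes parted. For comp119891_c0 the 2 stage 15 forelimb libraries had 123 and 70.3 CPM, and the test of stage 15 against stage 14 did not pass (log2 change 0.79, standard error 0.24, adjusted p = 0.0655, edgeR's quasi-likelihood test). For comp119338_c0 they had 5.33 and 0.895, lower than every stage 14 library, with a log2 change of -2.55 (standard error 0.67, adjusted p = 0.045, same test). The level of comp125497_c0 went on falling to 5.06 and 2.81 CPM, a log2 change of -2.71 (standard error 0.28, adjusted p = 0.00055, same test). For comp107450_c0 both stage 15 libraries were at 0, and the gene had too few counts to be tested there.

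The test of stage 15 against stage 14 shares its stage 14 libraries with the test of stage 14 against stage 13, so their values are set side by side only. All 322 genes that rose could be tested at the later step, with a median log2 change of 1.49 at the earlier step and 0.56 at the later. Of these, 142 rose again, 19 fell and the rest did not pass. Over all 15015 genes tested at that step, 1270 (8.46%) were higher at stage 15 and 652 (4.34%) were lower. Of the 122 genes that fell, 117 could be tested, with medians of -1.16 and -0.31, and 26 fell again, 16 rose and 75 did not pass. With the genes called without stage 13 replicate 3, 183 of 446 higher genes rose again and 24 fell, and of 222 lower genes tested 46 fell again and 24 rose. Relative to the stage 13 mean, the genes that rose stood at a median of 2.09 and 2.07 on the log2 scale in the stage 15 forelimb libraries, and the genes that fell at -1.44 and -1.37.

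The hind limb libraries of stages 13 and 14 were not used to find these genes, and they were used to look the genes up. Of the 322 genes that rose in the forelimb, 316 could be tested in the hind limb. Of these, 141 (44.6%) were higher at stage 14 in the hind limb as well and 2 were lower by edgeR's quasi-likelihood test, beside 633 genes (4.22%) higher and 963 (6.42%) lower among all 15007 genes tested there. Of the 122 genes that fell in the forelimb, 121 could be tested, and 56 (46.3%) were lower and none higher. The fitted hind limb change had the direction of the forelimb in 289 of the 316 genes and in 117 of the 121. Its median was 0.94 on the log2 scale for the genes that rose, with quartiles at 0.53 and 1.58, and -0.91 for the genes that fell, with quartiles at -1.62 and -0.47. Over the 14414 genes tested in both limbs the median hind limb change was 0.02.

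The genes shared by both limbs made up 22.3% of the hind limb genes higher at stage 14 and 5.82% of those lower. For forelimb rises of at least 4-fold, 46 of 99 genes (46.5%) also rose in the hind limb, and for falls of at least 4-fold 18 of 28 (64.3%) also fell. With the forelimb calls made without stage 13 replicate 3, 167 of 438 higher genes (38.1%) and 85 of 230 lower genes (37%) passed in the hind limb in the same direction. Across the 14414 genes the log2 changes of the limbs had a Pearson coefficient of 0.672 and a Spearman coefficient of 0.646. Genes are not independent replicates, and all limbs of a stage share the collection of embryos and the assembly, so this is a description. In the hind limb, the share of genes under 300 bases with a count was 24.2% to 25.7% at stage 13 and 11.6%, 11.6% and 19.8% at stage 14, and its part in the hind limb calls was not tested. No gene under 300 bases was among the forelimb calls looked up.

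**Figure D4:**
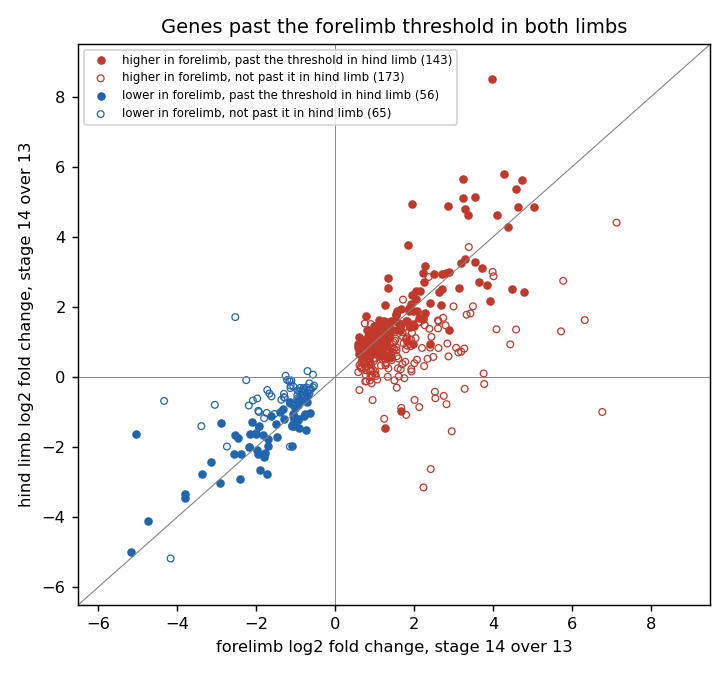
Log2 fold change of stage 14 over stage 13 in the hind limb (vertical axis) against that in the forelimb (horizontal axis), for the 437 genes past the forelimb threshold that were tested in both limbs. Red genes were higher and blue genes lower in the forelimb; filled circles also passed in the hind limb, the diagonal marks equal change, and 2 filled red circles lie below 0.

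Whether the change differed between limbs was tested by the interaction of stage and limb over the 12 libraries of both limbs. With edgeR's quasi-likelihood test 0 of 15676 genes (0%) passed, the smallest adjusted p was 0.0811 (same test), and 830 genes (5.29%) had an unadjusted p under 0.05. Among the 444 genes past the forelimb threshold, 88 of those that rose and 25 of those that fell had an unadjusted interaction p under 0.05, but these genes were chosen on the same forelimb libraries, which favours a larger forelimb change. No change of the forelimb is thus shown to be particular to it, and the absence of a call does not show that the limbs changed alike.

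The 4 genes, chosen for size or p in the forelimb, all changed in the same direction in the hind limb. They do not cover the genes of opposite sign there, 27 of the 316 that rose and 4 of the 121 that fell. For comp125497_c0 the hind limb levels were 545, 532 and 552 CPM at stage 13 and 53.8, 72.0 and 38.5 at stage 14, with a log2 change of -3.34 (standard error 0.22, adjusted p = 0.000129, edgeR's quasi-likelihood test). For comp107450_c0 they were 1.01, 3.1 and 6.09, and 0.113, 0.0691 and 0.165, with a log2 change of -4.98 (standard error 0.74, adjusted p = 0.00523, same test). Both genes that fell in the forelimb also fell in the hind limb. For comp107450_c0 the forelimb change was -5.17 with stage 13 replicate 3 and -3.45 without it, and the interaction was -0.18 with a standard error of 1.64, so the amounts cannot be compared closely. For comp119891_c0 the hind limb levels were 0.534, 2.71 and 0.798 at stage 13 and 12.9, 20.6 and 47.1 at stage 14, a log2 change of 4.28 (standard error 0.78, adjusted p = 0.0239, same test). For comp119338_c0 they were 0.297, 0.0553 and 0 at stage 13 and 0.675, 1.18 and 5.62 at stage 14, a log2 change of 4.40 (standard error 1.22) that did not pass (adjusted p = 0.0581, same test). The interaction for that gene was 2.72 with a standard error of 1.76 (adjusted p = 0.863, same test), so its larger forelimb change is within the error.

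**Figure D5:**
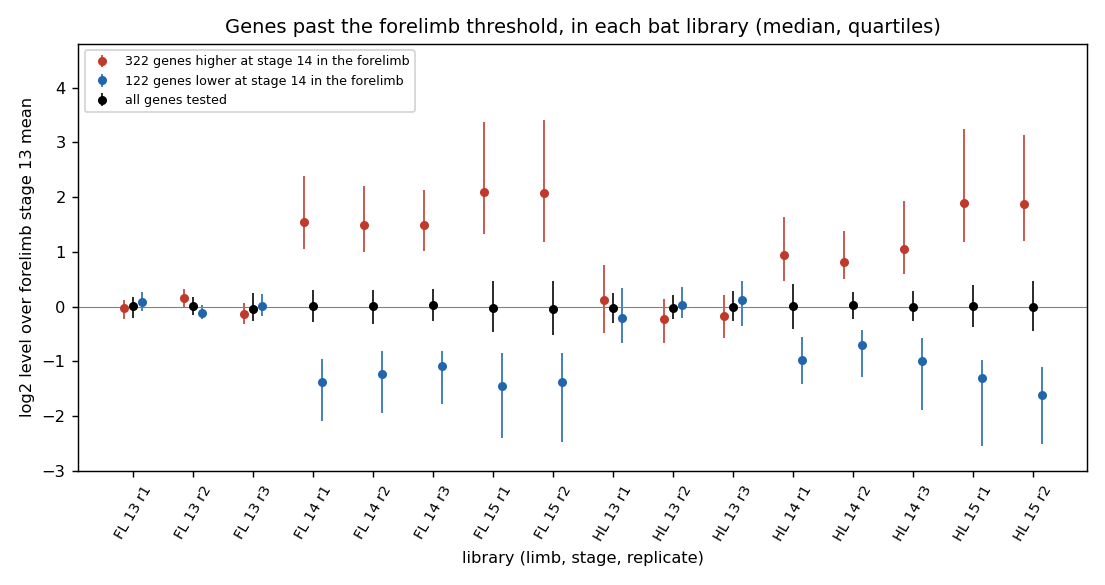
Log2 level relative to the mean of the 3 forelimb stage 13 libraries (vertical axis) in each of the 16 bat libraries (horizontal axis; limb, stage, replicate), with the median over genes as points and the quartiles as bars. Red, the 322 genes higher and blue, the 122 genes lower at stage 14 in the forelimb; black, all 14630 genes tested, whose median stays between -0.04 and 0.03.

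Followed library by library, the genes chosen in the forelimb separated the stages of the hind limb too. The 322 genes that rose stood at a median of 0.12, -0.22 and -0.17 on the log2 scale in the 3 hind limb libraries of stage 13, relative to the forelimb stage 13 mean. They stood at 0.95, 0.81 and 1.06 at stage 14, and at 1.89 and 1.88 at stage 15. The 122 genes that fell stood at -0.21, 0.04 and 0.11 at stage 13, at -0.97, -0.70 and -0.99 at stage 14, and at -1.30 and -1.62 at stage 15. In both lists the hind limb libraries of stage 13 did not overlap those of stage 14, nor did those of stage 14 overlap those of stage 15. The medians of the hind limb at stage 14 lay between those of the forelimb at stages 13 and 14, a place that the choice of the genes on the forelimb favours.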

How the data were processed

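RNASeq libraries of bat limbs were made by the authors from total RNA with a TruSeq kit. Reads were trimmed by the authors, the pooled bat reads were assembled with Trinity, sequences with a SwissProt match were kept, and RSEM (bowtie inside) was run on them. The paper describes bat limbs of stages 14 and 15 only and does not say whether reads of stage 13 were in the pool. Versions are not given in the sources used here. The deposited expected counts are RSEM's estimated reads per gene, not normalized, and were rounded to whole numbers here. FPKM values, also deposited and scaled by RSEM to transcript length and depth, were used in 1 alternative. Lengths and effective lengths are as deposited. Estimated counts divide reads between similar sequences, which can blur related genes.

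Groups came from the labels, with ES forelimbs taken as stage 14 as the protocol states. A gene was tested when 3 or more of the 6 libraries had 10 counts or more, and tests were run with edgeR (version 4.0.16, R version 4.3.3; TMM, robust quasi-likelihood), at a Benjamini-Hochberg adjusted p under 0.05, with only the groups compared in a fit. Fits that leave out a library kept the same genes. The later forelimb step used at least 10 counts in 2 libraries. Standard errors are the absolute log2 change over the square root of F. Levels are counts scaled to 1000000 (CPM) on TMM-scaled totals of all 16 libraries, with a prior count of 2 where logged. The members and lists were chosen with earlier results of these data known. The 4 genes named are, in each direction among genes past the threshold without overlap, the largest change and the smallest p with at least 10 counts in every library.

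No pair of replicates was a copy: the chi-square of pairs within a stage was 23 to 75 per degree of freedom. On simulated counts for the forelimb comparison (14519 genes, 200 changed), the fit recovered 97% of 4-fold and 34.7% of 2-fold changes. Of its calls there, 5.11% were false. The simulation gave all genes the same spread in both stages, with no library standing apart. In the real libraries the biological coefficient of variation was 0.302 at stage 13 and 0.192 at stage 14. These shares thus describe the simulated counts and not the errors of the real comparison. Alternatives were DESeq2 (version 1.42.0), RLE factors, other filters, all 16 libraries, a replicate block, each library left out, matched depth and genes of 1000 bases or more. The division of the calls by size, level, length, isoforms and stage 15 without stage 13 replicate 3 was added after seeing the data. Figures were drawn with matplotlib 3.10.9.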

Additional observations from a re-analysis of the deposited data

How the results depend on the processing

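The forelimb count of 444 genes was within 1.5 times of itself with RLE factors, no filter, a minimum of 50 counts, matched depth and genes of 1000 bases or more. It was 1244 with DESeq2 (57.1% of them higher at stage 14, against 72.5%), 842 with all 16 bat libraries in one fit, and 1 with the stage 14 library labelled with a stage number alone. With each library left out it ran from 83 (without stage 14 replicate 1) to 677 (without stage 13 replicate 3), with 146 and 286 without stage 13 replicates 1 and 2, and 120 and 153 without stage 14 replicates 2 and 3. Chosen after seeing the data, leaving out stage 13 replicate 3 gave 1327 genes with DESeq2 and 772 among genes of 1000 bases or more. DESeq2, run on the same libraries, called 438 of the 444 genes. In all alternatives each of the 444 that was tested had the same sign. The groups of these genes do not overlap, so the choice of genes largely fixed their sign in alternatives on the same libraries. Fits with a library left out also hold fewer libraries, and for none of the counts that moved was the cause tested.

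With the replicate number as a block 851 genes passed, 442 of the 444 among them. The numbers pair no samples in the labels. The deviations of same-numbered libraries correlated by -0.12, 0.241 and 0.246, and those of stage 13 replicate 1 and stage 14 replicate 2 by 0.259. With 3 libraries in a stage such values cannot show whether same-numbered libraries share more than the number, and this was not tested. The interaction of stage and limb gave 5 genes with the replicate block within each stage and 1 with no filter. With each library left out it gave from 0 to 2. These were 2 without hind limb stage 13 replicate 1, and 1 without forelimb stage 13 replicate 3, hind limb stage 13 replicate 2 or hind limb stage 14 replicate 3. Within stages, the deviations of same-numbered forelimb and hind limb libraries correlated by 0.143, -0.213 and -0.0461 at stage 13. At stage 14 they correlated by -0.0115, 0.534 and 0.167. The main interaction fit took all libraries as independent, and whether limbs share embryos was not tested.

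The share of genes under 300 bases with a count in stage 13 replicate 3, over the median of the other 5 libraries, was 2.16, and became 0.95 at a minimum of 10 counts and 3.18 at matched depth. The difference in Spearman coefficients was above 0 in all alternatives, but with any 1 stage 14 library left out it was 0.00811 to 0.00988 and the exact one-sided permutation p rose from 0.1 to 0.2, where 0.1 could be reached, so another grouping of those 5 libraries was at least as far apart as the stages. The number of forelimb genes also called in the hind limb in the same direction was 197, and from 168 to 295 in its alternatives. The log2 change of comp119338_c0 ran from 6.60 to 9.22, that of comp119891_c0 from 4.24 to 4.68 and that of comp125497_c0 from -3.94 to -3.61. That of comp107450_c0 ran from -5.63 to -3.45. This gene stayed past the threshold in 8 of 11 alternatives, with an adjusted p of up to 0.151 in the others (edgeR's quasi-likelihood test). Depth limits the genes under 1 CPM most, where the median standard error was 0.54.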

Other observations

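The largest fitted fall of all genes tested belonged to comp124770_c0, a gene of 12907 bases chosen here after its values were seen, and it did not pass. Its forelimb levels were 933, 18.5 and 1240 CPM at stage 13, and 11.8, 24.1 and 14.9 at stage 14. At stage 15 they were 870 and 20.4. The libraries of stages 13 and 15 thus fell into high and low ones within a stage, with none between 24.1 and 870 in the forelimb. The log2 change from stage 13 to 14 was -5.46 with a standard error of 1.37 (edgeR's quasi-likelihood test, adjusted p = 0.096). In the hind limb all 3 libraries of stage 13 were high, at 550, 897 and 1090, all 3 of stage 14 were low, at 24.7, 17.5 and 7.72, and both of stage 15 were high, at 873 and 749. There the change of -5.68 between stages 13 and 14 passed (adjusted p = 0.00404, same test), although the gene was at both levels within single stages of the forelimb.

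Another gene, comp113118_c0 (2434 bases, also chosen after its values were seen), was at 32.7 CPM in stage 13 replicate 3 and at 0.656 and 0.526 in the other stage 13 forelimb libraries. It was at 33.4 in 1 hind limb library of stage 13 and at 0.949 and 0.63 in the others. Its forelimb log2 change was -4.79 with all libraries and -0.51 without stage 13 replicate 3.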
